A study of Mus musculus with 6 samples.

Results

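Alpha-fetoprotein, albumin, afamin and the vitamin D-binding protein belong to the albumin family of plasma proteins (genes Afp, Alb, Afm and Gc). Glypican 3 (Gpc3) is a cell surface proteoglycan that, like alpha-fetoprotein, is a marker of hepatocellular carcinoma. These 5 genes were followed in liver tumours through all probe sets that the platform annotation gave to 1 of them alone: 9 of 22626 probe sets, 5 for Afp, 2 for Afm, 1 for Alb and 1 for Gpc3. No probe set was named for Gc, which was not analysed here. The tumours came from 6 male mice of the CD-1 background strain, each on its own Affymetrix expression array. All mice had received N-nitrosodiethylamine (DEN), a carcinogen that hepatocytes convert to a DNA-damaging form, in 1 intraperitoneal dose of 10 µg per g body weight when 14 days old, and were killed at 28 weeks. The groups were 3 wild-type mice and 3 Alb/AEG-1 mice, whose transgene encodes AEG-1 (astrocyte elevated gene-1, also called metadherin, the protein of Mtdh), introduced as a 5.3-kb fragment into embryos from B6CBAF1/J matings. The comparison addresses how tumours that arose with the transgene differ from those that arose without it.

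The name Alb/AEG-1 is that of the construct, and in constructs named this way the albumin promoter directs expression to hepatocytes. The labels state neither the species of the AEG-1 sequence nor the number of founder lines. Mtdh had 6 probe sets, of which that with the highest mean is given here. It was at 9.17 ± 0.15 (SD, n = 3) in wild-type tumours and 9.37 ± 0.21 in Alb/AEG-1 tumours on the log2 scale, with overlapping groups. The Mtdh probe sets may not bind the transgene, so that they do not check the genotype. The animal numbers in the labels fall below 100 for wild-type replicate 1 and for replicates 1 and 2 of the transgenic group and above it for the other 3 mice (lower and higher animal numbers), which are not said to mark a batch. The hepatocyte markers fixed for the tissue (7 of 7 measured, among them Alb, Apoa1, Ttr and Cps1) were bright on every array, with mean levels of 13.73 to 13.76 in wild-type tumours and 13.71 to 13.78 in Alb/AEG-1 tumours.

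The albumin family arose by duplication of an ancestral gene, and in the mouse 3 of the members followed here stand side by side in one transcriptional direction. In the RefSeq order of protein-coding genes on chromosome 5 (GRCm38.p6), Alb, Afp and Afm follow each other with no other protein-coding gene between them. Directly after Afm comes Albfm1, a further gene of the albumin superfamily, which was not analysed here. Npffr2, Adamts3, Cox18 and Ankrd17 lie between Gc and Alb. Afp encodes a major plasma protein of the fetus. It is transcribed in fetal liver and yolk sac, falls to a low level in the liver after birth and returns in regenerating liver and in many liver tumours, whereas Alb remains the most abundant secreted product of the adult hepatocyte. Afm carries vitamin E and lipid-modified Wnt proteins. Gpc3, on the X chromosome, is a heparan sulfate proteoglycan held to the membrane by a lipid anchor. It binds growth factors, Wnt and Hedgehog ligands, and is also expressed in fetal liver and shut down afterwards.

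The sequences just upstream of these genes are shown because Afp, Alb and Afm, whose levels differed so unequally between the genotypes, are neighbours, and because the Gpc3 sequence is of another composition. Each is the 250 bases before the gene's RefSeq start in GRCm38.p6, written 5′ to 3′ on the strand of the gene. They come from chr5:90490464-90490713 (plus strand) for Afp, chr5:90460620-90460869 (plus) for Alb, chr5:90518699-90518948 (plus) for Afm and chrX:52613975-52614224 (minus) for Gpc3. Capitals mark TATAAA, the letters of the TATA box, which places the start of transcription in many tissue-specific genes.
Afp: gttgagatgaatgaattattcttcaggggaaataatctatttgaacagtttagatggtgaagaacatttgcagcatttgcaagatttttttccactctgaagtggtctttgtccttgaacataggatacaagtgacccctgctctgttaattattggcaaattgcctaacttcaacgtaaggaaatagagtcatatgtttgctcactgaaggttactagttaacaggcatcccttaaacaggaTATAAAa
Alb: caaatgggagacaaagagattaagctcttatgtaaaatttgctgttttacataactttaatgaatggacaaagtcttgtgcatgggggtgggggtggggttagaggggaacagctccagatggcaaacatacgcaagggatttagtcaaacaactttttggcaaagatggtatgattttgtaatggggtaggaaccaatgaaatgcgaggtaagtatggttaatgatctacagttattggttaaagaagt
Afm: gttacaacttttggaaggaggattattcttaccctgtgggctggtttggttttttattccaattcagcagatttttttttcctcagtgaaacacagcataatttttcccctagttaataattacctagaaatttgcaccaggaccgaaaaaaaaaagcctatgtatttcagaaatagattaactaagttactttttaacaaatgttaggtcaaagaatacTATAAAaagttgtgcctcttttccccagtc
Gpc3: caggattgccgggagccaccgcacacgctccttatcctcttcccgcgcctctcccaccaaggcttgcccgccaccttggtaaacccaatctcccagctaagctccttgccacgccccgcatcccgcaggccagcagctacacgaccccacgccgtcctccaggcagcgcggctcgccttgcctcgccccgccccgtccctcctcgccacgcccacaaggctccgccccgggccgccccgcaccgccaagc

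Searched on both strands, TATAAA was present in the windows of Afp and Afm, 2 of the 5 (Gc included), against 12.4% of 32851 windows of the same length before RefSeq starts. Its first base lay 7 bases before the annotated start in Afp and 30 in Afm. The letters were not in the windows of Alb, Gc and Gpc3. The Gpc3 window had a GC content of 71.6% and 25 CpG dinucleotides, against 36.0% and 1 in Afp, 39.2% and 2 in Alb, and 33.2% and 1 in Afm (medians of all windows 52.4% and 6). These matches and compositions describe the reference sequence before the annotated starts. Whether the letters act as a TATA box, or whether one lies outside a window, was not tested.

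Afp was higher in every Alb/AEG-1 tumour than in any wild-type tumour on 4 of its 5 probe sets, on 1436881_x_at by only 0.04. Of all probe sets, 6.28% had groups without overlap in that direction. No Afp probe set passed the threshold over all probe sets. The difference was 2.99 log2 on the Afp probe set with the highest mean. That probe set, 1416646_at, read 5.37, 5.48 and 4.92 in wild-type replicates 1 to 3 and 7.46, 9.57 and 7.69 in Alb/AEG-1 replicates 1 to 3. Alb/AEG-1 replicate 2 was the highest array, and the lowest transgenic value lay 1.98 above the highest wild-type value. The group levels were 5.25 ± 0.30 (SD, n = 3) and 8.24 ± 1.16, a 7.93-fold difference (2.99 ± 0.51 log2, SE, limma, unadjusted p = 0.000468, adjusted p = 0.467 over all 22626 probe sets). The values are log2 levels after robust multi-array averaging (RMA), on which 1 unit is a doubling. In bulk tissue, fewer cells of a type and less RNA per cell cannot be told apart. The number of arrays, 3 in each group, limits the precision.

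The Afp probe sets differed among themselves in level and in response. The probe set 1416645_a_at, drawn like 1416646_at from the RefSeq transcript of Afp and marked by its suffix as shared by transcript variants of the gene, read 3.18, 4.38 and 2.91 in wild-type tumours and 7.49, 9.69 and 8.06 in Alb/AEG-1 tumours. The groups did not overlap. Its difference was 4.92 ± 0.59 log2 (SE, limma, unadjusted p = 4.44e-05, adjusted p = 0.158). Wild-type replicates 1 and 3 were near the floor, with replicate 3 at the percentile 3.76 of its array, while replicate 2 was at 26.3. The size of the difference therefore depends on where the floor of the scale lies, and it is not given as a fold.

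The probe set 1436879_x_at, whose suffix marks probes that may also bind other transcripts, read 2.72, 2.94 and 2.48 in wild-type tumours and 5.66, 7.61 and 5.87 in Alb/AEG-1 tumours. Its wild-type values lay between the percentiles 0.305 and 3.95, at the bottom of the scale, and the transgenic values between 47.6 and 74.9. The difference from that floor was 3.67 ± 0.47 log2 (limma, unadjusted p = 6.98e-05, adjusted p = 0.158), which is likewise no measured fold. Without Alb/AEG-1 replicate 2 it was smaller, at 3.05 ± 0.16, and passed the threshold (adjusted p = 0.0136), with the remaining transgenic values at 5.66 and 5.87. Over its other alternatives the adjusted p ran up to 0.768.

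The other Afp probe sets were derived from 1 shared sequence entry and were dim on all arrays. The probe set 1436881_x_at read 3.64, 3.88 and 4.01 in wild-type tumours and 4.65, 4.05 and 4.81 in Alb/AEG-1 tumours. The groups stood only 0.04 apart at their nearest, and here Alb/AEG-1 replicate 2 was the lowest of the transgenic arrays, not the highest. The difference was 0.66 ± 0.20 log2 (limma, adjusted p = 0.596). The probe set 1436880_at read 3.80, 3.46 and 3.98 in wild-type tumours and 3.54, 3.61 and 3.88 in Alb/AEG-1 tumours, with overlapping groups, and differed by -0.07 ± 0.15 log2 (adjusted p = 0.90). Its interval of 95% ran from -0.42 to 0.28, below the lower bound of 1.80 on 1416646_at. No value of this probe set rose above the percentile 19.9 of its array, and its difference was 0.04 without wild-type replicate 3.

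The probe sets 1416646_at, 1416645_a_at and 1436879_x_at gave the tumours the same order within the transgenic group. Alb/AEG-1 replicate 2 lay above the mean of replicates 1 and 3 by 2.00 log2 on 1416646_at, 1.91 on 1416645_a_at and 1.85 on 1436879_x_at, and replicate 3 lay above replicate 1 on each. Against the wild-type mean, 1416646_at was higher by 2.21 in replicate 1, 4.32 in replicate 2 and 2.44 in replicate 3. The transgenic SD of 1 or more on these 3 probe sets and on the Gpc3 probe set compares with 111 such probe sets in all (0.491%). The Afp difference on 1416646_at was 2.32 without Alb/AEG-1 replicate 2 (limma, adjusted p = 0.0707) and 3.38 when replicate 1 of that group was left out. Among mice with lower animal numbers the difference was 3.15 and among those with higher numbers 2.49.

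**Figure D1:**
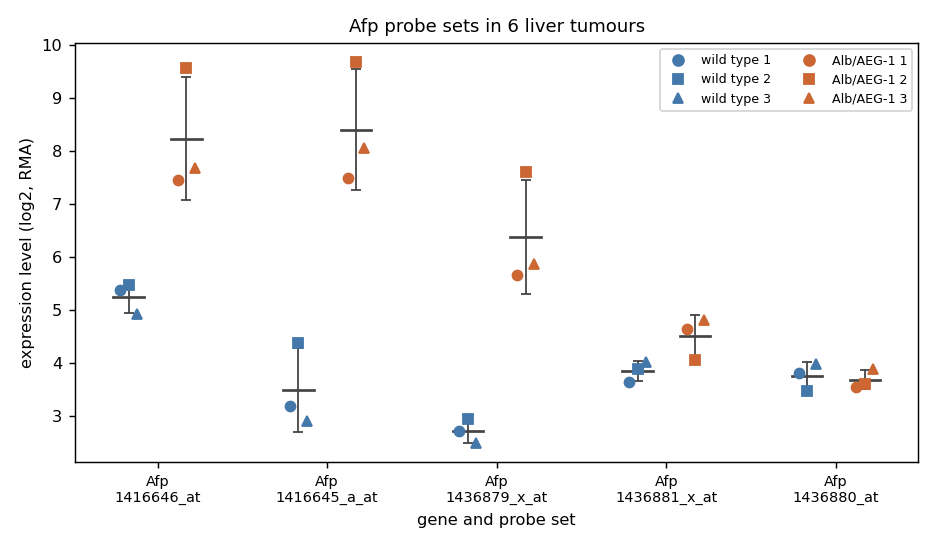
Expression level (log2, RMA) of the 5 Afp probe sets in 3 wild-type (blue) and 3 Alb/AEG-1 (orange) liver tumours. Symbols are single arrays, horizontal lines are group means and bars are ± 1 SD. On 1416646_at, 1416645_a_at and 1436879_x_at the transgenic arrays lie at least 1.98 above the wild-type arrays with replicate 2 on top, while 1436880_at overlaps.

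Alb, which encodes the main carrier protein and osmotic protein of plasma, stayed at the top of the scale in both groups. Its probe set 1425260_at read 14.63, 14.64 and 14.64 in wild-type tumours and 14.62, 14.59 and 14.62 in Alb/AEG-1 tumours. It was the second brightest of all 22626 probe sets on each of the 6 arrays (rank 2), and the transgenic values were lower without overlap by a very small margin. The difference was -0.03 ± 0.07 log2 (SE, limma, adjusted p = 0.922), with an interval of 95% from -0.20 to 0.14. Because quantile normalization gives probe sets of equal rank equal values, repeating it on the deposited table set the difference to 0. A change in Alb that left its rank in place would not be visible after that repeat. In the deposited values normalization came before the probe set summaries. How far it reduced such a change there was not tested.

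Afm was measured by 2 probe sets that gave the arrays the same pattern. The brighter, 1427440_a_at, read 11.89, 11.74 and 11.89 in wild-type tumours and 12.03, 12.10 and 11.88 in Alb/AEG-1 tumours. The dimmer, 1427561_a_at, read 10.85, 10.54 and 10.82 in wild-type tumours and from 10.78 in replicate 3 to 11.12 in replicate 2 of the Alb/AEG-1 tumours. On both, Alb/AEG-1 replicate 2 was the highest and wild-type replicate 2 the lowest array, and the groups overlapped through Alb/AEG-1 replicate 3. The differences were 0.16 ± 0.09 log2 (95% interval -0.06 to 0.38, limma, adjusted p = 0.657) and 0.23 ± 0.13 (-0.06 to 0.52, adjusted p = 0.648).

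The difference of Afp was set against those of the other members within each array, on the probe set with the highest mean of each gene. Between genotypes, the level of Afp minus that of Alb differed by 3.01 log2, Afp minus Afm by 2.83 and Afp minus Gpc3 by 2.30. For each of these 3 comparisons all transgenic arrays lay above all wild-type arrays, and the exact two-sided permutation p was 0.1 (0.1 after Benjamini-Hochberg adjustment over the 3), the smallest that 3 against 3 arrays can give. The within-array difference from Gpc3 was nearly even among the transgenic tumours, at 3.11, 2.96 and 3.12 log2 in replicates 1 to 3, against 0.93, 0.81 and 0.55 in the wild-type tumours. Since Alb ranged only from 14.59 to 14.64 over all arrays, the first of these comparisons restates the difference of Afp itself. Afm ranged only from 11.74 to 12.10 over all arrays, against a gap of 1.98 between the groups of Afp. The separation of Afp minus Afm therefore also follows from Afp and is no separate evidence. Gpc3 lay between 4.35 and 4.66 on all arrays but Alb/AEG-1 replicate 2, where it was 6.62. Outside that tumour the separation of Afp minus Gpc3 likewise follows from Afp. These are within-array differences between probe sets with their own sensitivity, so only their change between arrays can be read.

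Outside the family, the 4 nearest measured neighbours before Alb did not pass the threshold. Ankrd17, next to Alb, differed by 0.08 ± 0.08 log2 (adjusted p = 0.79). Cox18, a mitochondrial membrane protein insertase one gene further, read 7.89, 7.62 and 7.47 in wild-type tumours and 8.09, 8.39 and 8.02 in Alb/AEG-1 tumours, without overlap (0.51 ± 0.14 log2, limma, adjusted p = 0.596). Npffr2, a neuropeptide receptor gene nearer to Gc, read 4.36, 4.43 and 4.62 in wild-type tumours and 4.14, 4.19 and 4.05 in Alb/AEG-1 tumours, lower without overlap (-0.35 ± 0.10 log2, limma, adjusted p = 0.596). Slc4a4, a bicarbonate cotransporter gene on the far side of Gc, differed by -0.09 ± 0.13 with overlap. Cox18 and Npffr2 thus differed in opposite directions, while Ankrd17 and Slc4a4 overlapped between the groups. Groups without overlap were found upwards for 6.28% and downwards for 8.38% of all probe sets. Npffr2 was also low on the scale, between the percentiles 26.7 and 30.2 in wild-type tumours and 22.3 and 23.9 in Alb/AEG-1 tumours.

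Gpc3 separated 1 tumour from the other 5. Its probe set 1450990_at read 4.44, 4.66 and 4.37 in wild-type tumours and 4.35, 6.62 and 4.57 in Alb/AEG-1 tumours. Alb/AEG-1 replicate 2, the tumour with the highest Afp, was 2.13 log2 above the wild-type mean, while replicates 1 and 3 differed from that mean by -0.14 and 0.08. The group difference of 0.69 ± 0.53 log2 (limma, adjusted p = 0.715, 95% interval -0.55 to 1.94) therefore rested on that array, and leaving it out gave -0.03. It was 1.04 within the lower animal numbers, which hold that tumour, and 0.06 within the higher.

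**Figure D2:**
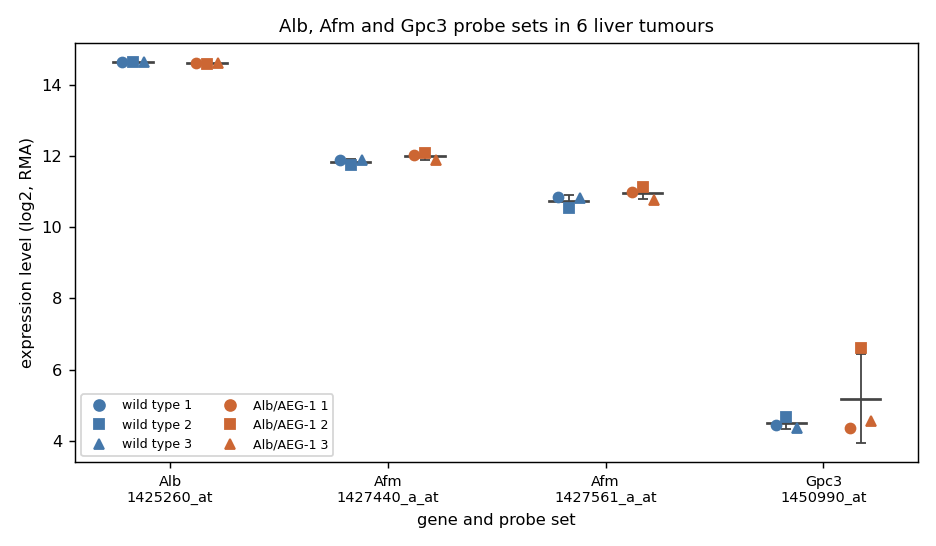
Expression level (log2, RMA) of the Alb, Afm and Gpc3 probe sets in 3 wild-type (blue) and 3 Alb/AEG-1 (orange) liver tumours, with single arrays as symbols, group means as lines and ± 1 SD as bars. Alb lies between 14.59 and 14.64 on all arrays, and Gpc3 is at 6.62 in Alb/AEG-1 replicate 2 and at most 4.66 elsewhere.

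Across the 9 probe sets, 0 passed an adjusted p of 0.05, which 1 of 22626 probe sets did upwards (0.00442%) and 0 downwards (0%). At an unadjusted limma p below 0.05, 4 of the 9 were higher, all of them Afp, and 0 were lower, against 3.68% higher and 4.38% lower over all probe sets. The same 4 were also at least 1.5-fold higher, against 0.685% of all probe sets. Groups without overlap were found upwards for these 4 (6.28% of all probe sets) and downwards for Alb (8.38%). Of the 13 probe sets in the table with a difference of 2 log2 or more (0.0575%), 3 belonged to Afp, 2 of them with most or all wild-type arrays near the floor. Probe sets of 1 gene read the same RNA and are not independent, and by genes the count was 1 of 4 at an unadjusted p below 0.05, against 3.86% higher and 4.47% lower among 12393 genes. Alb/AEG-1 replicate 2 was the highest of the 6 arrays on 6 of the 9 probe sets and on 15.5% of all.

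**Figure D3:**
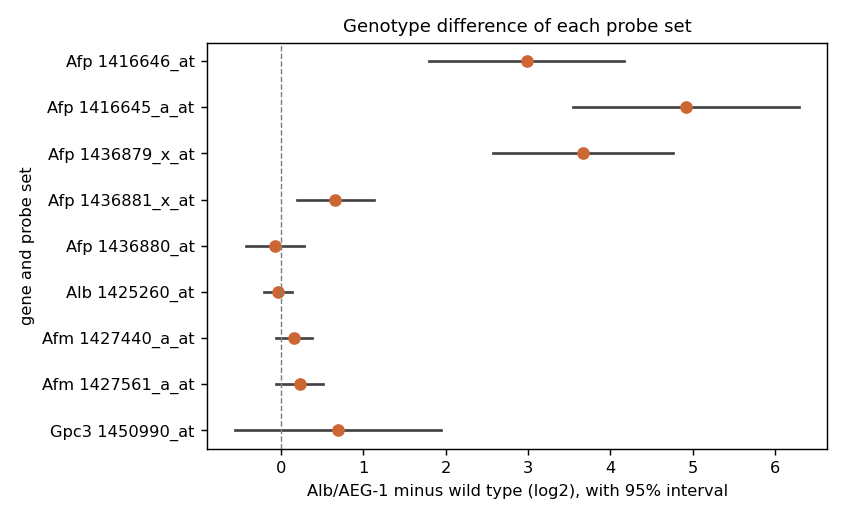
Difference between Alb/AEG-1 and wild-type tumours (log2) for each of the 9 probe sets, with the 95% interval from limma (n = 3 per group). The intervals of 4 Afp probe sets lie above 0, from 0.66 to 4.92 at their centres. Of these, 1416645_a_at and 1436879_x_at had most or all wild-type arrays near the floor. The intervals of Afp 1436880_at, Alb, Afm and Gpc3 include 0.

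The genes whose centred profile over the 6 arrays was nearest to that of Afp on 1416646_at were Scd2, Lcn2, Akr1c18, Tff3, Lpl, Prom1, Ly6d and Wfdc15b. The measure was the root mean square difference of the log2 profiles, each centred on its own mean, which was 0.42 for Scd2 and 0.88 for Wfdc15b against a median of 1.65 over all genes. Scd2, a stearoyl-CoA desaturase of fetal tissues, read 5.47, 5.79 and 4.79 in wild-type tumours and 8.35, 9.35 and 8.46 in Alb/AEG-1 tumours. Like Afp it was lowest in wild-type replicate 3 and highest in Alb/AEG-1 replicate 2.

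Lcn2, which encodes the siderophore-binding lipocalin 2, read 5.05, 4.75 and 5.27 in wild-type tumours and 6.35, 8.44 and 7.26 in Alb/AEG-1 tumours, in the same transgenic order as Afp. Akr1c18, a hydroxysteroid dehydrogenase, read 6.85, 8.29 and 7.36 in the transgenic tumours, also in that order. Tff3, a secreted trefoil peptide, and Lpl, the lipoprotein lipase, were instead lowest in Alb/AEG-1 replicate 3 among the transgenic tumours, at 8.54 and 8.44. Prom1, a progenitor surface protein, read 4.55, 6.71 and 5.86 in the transgenic tumours, in the order of Afp. Ly6d, a surface protein of the Ly6 family, read 6.25, 8.46 and 7.50, likewise in that order. Afp thus shared its order with some of its nearest genes and not with others. None of these genes passed over all probe sets (limma, adjusted p from 0.0748 for Scd2 to 0.616 for Wfdc15b), and since each was chosen for its likeness to Afp, its difference is no further evidence for that of Afp.

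For Gpc3 the nearest genes were Sult2a2, Cdkn2b, Rad51b, Ube2c and Nucb2, with root mean square differences from 0.23 to 0.37. Sult2a2, a sulfotransferase of steroids and bile acids, read 3.21, 3.19 and 3.49 in wild-type tumours and 3.56, 5.68 and 3.57 in Alb/AEG-1 tumours. Cdkn2b, which encodes the cell cycle inhibitor p15INK4b, read 4.80, 6.59 and 5.37 in the transgenic tumours, and Ube2c, a ubiquitin-conjugating enzyme of mitosis, read 4.77, 5.99 and 4.79. These genes, too, were highest in Alb/AEG-1 replicate 2. Since each was chosen for its likeness to Gpc3, that peak follows from the choice and is no further evidence for that of Gpc3. Unlike Gpc3, 4 of the 5 (all but Nucb2) had every transgenic array above every wild-type array, as had 6.28% of all probe sets. Top2a, the topoisomerase of dividing cells, read 4.77, 5.53 and 4.60 in the transgenic and 4.50, 4.43 and 4.31 in the wild-type tumours, and 1 of its 2 probe sets was higher.

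**Figure D4:**
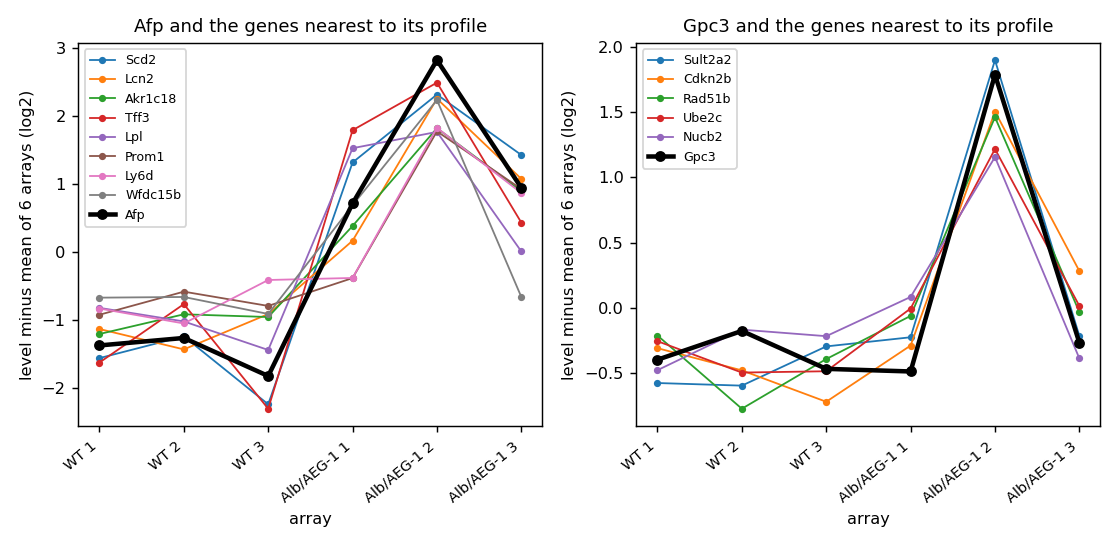
Level of each gene minus its own mean over the 6 arrays (log2) for Afp and its 8 nearest genes (left) and for Gpc3 and its 5 nearest genes (right). Lines join the arrays of 1 gene and imply no order of the tumours. Afp and its nearest genes are mostly low in the wild-type arrays and peak in Alb/AEG-1 replicate 2, and Gpc3 and its nearest genes are also highest in that replicate.

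Among known regulators of Afp transcription, 19 of 23 listed genes were measured, and none changed past the threshold. Zhx2, a homeodomain repressor of Afp after birth, was among the 4 not analysed here. Zbtb20, a zinc finger repressor that silences Afp in adult liver, read 9.54, 9.85 and 9.90 in wild-type tumours and 9.74, 9.62 and 9.63 in Alb/AEG-1 tumours, with overlapping groups (-0.10 ± 0.11 log2, limma, adjusted p = 0.803). Nr5a2, a nuclear receptor that activates Afp, differed by 0.23 ± 0.11 on its brightest probe set, and 2 of its 4 probe sets pointed that way. Nfix, a nuclear factor I protein, was the 1 gene of the list at an unadjusted p below 0.05 (-0.27 ± 0.12 log2, limma, unadjusted p = 0.0495, adjusted p = 0.618, on a cross-binding x_at probe set), which is 5.26% of the list against 8.33% of all genes.

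Several hepatocyte factors of that list varied widely between single tumours. Onecut1, encoding hepatocyte nuclear factor 6, read 7.0, 8.86 and 8.06 in wild-type tumours and 9.25, 5.54 and 8.45 in Alb/AEG-1 tumours, so its lowest level was in Alb/AEG-1 replicate 2, where Afp and Gpc3 were highest. Foxa1, a pioneer factor of liver genes, read 8.41, 8.43 and 8.04 in wild-type tumours and 9.09, 7.61 and 8.50 in Alb/AEG-1 tumours, also lowest in Alb/AEG-1 replicate 2. Foxa2, a related factor, read 9.14, 8.99 and 8.12 in wild-type tumours and 9.30, 8.17 and 9.13 in Alb/AEG-1 tumours. It was lowest in wild-type replicate 3, where Afp on 1416646_at was lowest, and nearly as low in Alb/AEG-1 replicate 2, where Afp was highest. Their part in the levels of Afp and Gpc3 was not tested. Cebpb, an inflammation-responsive factor, ranged from 9.49 to 11.28 within the wild-type group and differed by -0.35 ± 0.47. The remaining members (Zfp36l1, Gata4, Nfia, Nfib, Cebpa, Smad4, Smad2, Foxa3, Hnf4a, Rxra, Gata6 and Nfic) differed by -0.14 to 0.12, and the median over the list was 0.02 against -0.01 for all genes.

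Of the genes listed as further targets of Zhx2, which also acts on Afp and Gpc3, 3 were measured and H19 and Mup20 were not analysed here. Lpl, which frees fatty acids from lipoproteins, differed by 2.20 ± 0.43 log2 (limma, unadjusted p = 0.00108, adjusted p = 0.596) and Cd36, a fatty acid transporter, by 0.80 ± 0.21 (adjusted p = 0.596). Both were without overlap, which 6.28% of all probe sets showed upwards. Elovl3, a fatty acid elongase, read 11.70, 8.04 and 10.12 in wild-type tumours and 11.50, 11.60 and 9.31 in Alb/AEG-1 tumours, and overlapped. At an unadjusted limma p below 0.05, 2 of the 3 were higher (66.7% against 8.33% of all genes), and the list median was 0.85. Lpl was also among the genes chosen for likeness to Afp. The list was chosen with earlier results of these data known, so its count is no independent evidence. Among other genes that the liver shuts down after birth, 12 of 14 were measured, and Scd2 (3.37 ± 0.32 log2, adjusted p = 0.0748) was the 1 higher at an unadjusted p below 0.05, with 2 lower (25% of the list against 8.33% of all genes).

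The oncofetal RNA-binding protein genes Igf2bp3 and Igf2bp1 were lower at that level, by -0.32 ± 0.10 and -0.24 ± 0.10, on dim probe sets with levels of 3.82 to 4.36. The growth factor gene Igf2 read 5.84, 5.69 and 6.17 in wild-type tumours and 5.81, 6.06 and 5.73 in Alb/AEG-1 tumours. Dlk1, Mest, Cdkn1c and Plagl1, which are imprinted genes active in fetal liver, differed by -0.01, 0.03, -0.03 and 0.21. The median of this list was 0.01.

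The genes around glypican 3 differed little. The other glypicans with a probe set, Gpc1, Gpc4 and Gpc6, differed by 0.03, 0.00 and -0.08 log2. In 22 measured genes that build, trim or release heparan sulfate chains, 1 was higher and 2 were lower at an unadjusted limma p below 0.05 (13.6% against 8.33% of all genes). These were Glce, the epimerase of the chain (0.33 ± 0.11), Hs3st3b1, a 3-O-sulfotransferase (-0.36 ± 0.12), and Ndst2, an N-deacetylase and N-sulfotransferase (-0.20 ± 0.08). Only 1 of the 2 Glce probe sets was higher. Notum, the hydrolase that cuts glypicans from their anchor, differed by -0.26 ± 0.12 with overlap, and the list median was -0.03.

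Among 22 ligands, receptors and other partners of glypican 3, 1 passed an unadjusted p of 0.05 (4.55% against 8.33% of all genes) and the median was -0.07. That gene was Shh, a Hedgehog ligand, at 3.65 to 3.76 in wild-type tumours and 3.44 to 3.51 in Alb/AEG-1 tumours, low on the scale (-0.24 ± 0.08). Gli3, a transcription factor of the Hedgehog pathway, differed by -0.16 ± 0.08, the tetraspanin gene Cd81 by 0.14 ± 0.09 and the endocytic receptor gene Lrp1 by -0.14 ± 0.10.

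The list of other abundant secreted proteins of hepatocytes had small differences throughout. Of 26 measured, 1 was higher at an unadjusted p below 0.05, Ahsg, which encodes fetuin A, another fetal plasma protein (0.22 ± 0.09 log2, limma, adjusted p = 0.617), and 0 were lower, which is 3.85% of the list against 8.33% of all genes. The differences ran from -0.11 to 0.22 with a median of 0.01. The fibrinogen chain gene Fgb differed by 0.20 ± 0.11, the haptoglobin gene Hp by 0.21 ± 0.12 and Ambp, a precursor of alpha-1-microglobulin, by 0.13 ± 0.08. In 15 genes of albumin and vitamin D handling the median was -0.09 and 1 was lower at that level, the 1-alpha-hydroxylase gene Cyp27b1 (-0.25 ± 0.10, at 2.81 to 3.32 on all arrays), with 0 higher (6.67% against the same 8.33%). Fcgrt, the receptor that recycles albumin, read 9.51, 9.51 and 9.58 in wild-type tumours and 9.51, 9.08 and 9.59 in Alb/AEG-1 tumours. Calr, a chaperone, differed by 0.31 ± 0.16, Cyp27a1 by -0.16 ± 0.08 and Cubn, an endocytic receptor of albumin and the vitamin D-binding protein, by -0.14 ± 0.10.

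Other markers of liver tumours contained more genes higher at an unadjusted p below 0.05, 10 of 21 (47.6% against 8.33% of all genes), with 0 lower, 0 past the threshold over all probe sets and a median of 0.32. Leaving out wild-type replicate 1 lowered that median to 0.20, leaving out replicate 2 of either group lowered it to 0.21, and it was 0.20 when all probe sets of a gene were averaged. With dim probe sets left out, the median rose to 0.46. The list was chosen with earlier results of these tumours known, so its count is no independent evidence. Tspan8, a tetraspanin of epithelial tumours, read 3.49, 3.53 and 3.45 in wild-type tumours and 6.98, 9.87 and 8.30 in Alb/AEG-1 tumours, the transgenic order seen for Afp. Anxa2, a membrane-binding annexin, read 7.37, 7.10 and 7.04 in wild-type tumours and 7.98, 8.67 and 8.24 in Alb/AEG-1 tumours, again in that order. Not every probe set of the counted genes was higher, with 2 of 3 for Anxa2, 1 of 2 for Cd44 and for Top2a, and 1 of 3 for Cd24a. Golm1, a Golgi protein found in serum, was at 6.46, 7.65 and 6.70 in the transgenic tumours, with Alb/AEG-1 replicate 2 again highest.

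**Figure D5:**
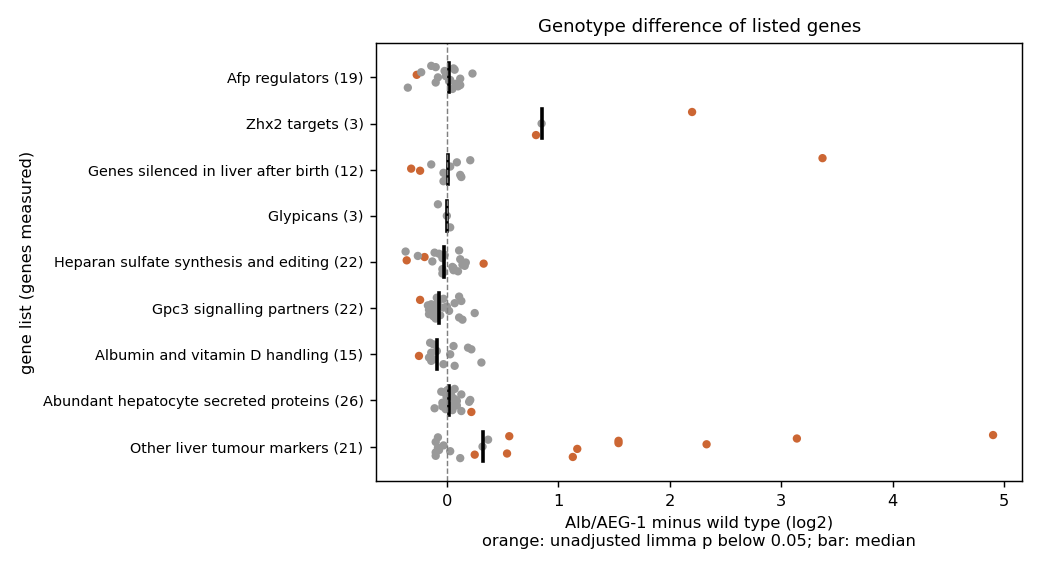
Difference between Alb/AEG-1 and wild-type tumours (log2) for the genes of each list, with 1 point per gene, orange where the unadjusted limma p was below 0.05, and a bar at the list median. The median is 0.85 for the 3 measured Zhx2 targets and 0.32 for other liver tumour markers, and lies between -0.09 and 0.02 for the other lists.

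Markers of other cells were read beside the Afp result. All 8 macrophage markers had a positive difference, as had 47.8% of all genes, and 2 of them (C1qb and Cd5l) were higher at an unadjusted p below 0.05, against 3.86% of all genes. Their mean level per array was 6.93 to 7.32 in wild-type tumours and 7.27, 7.46 and 7.79 in Alb/AEG-1 replicates 1 to 3, with overlap. Their part in the Afp difference was not tested. Cholangiocyte markers, which mark the bile duct epithelium, were low in both groups (6 of 8 measured, 0 at an unadjusted p below 0.05, mean level 4.35 to 4.38 and 4.33 to 4.59), with Krt19 at 5.21 to 5.34 in wild-type tumours and 5.11 to 5.40 in Alb/AEG-1 tumours. The means of the T cell (5 of 6 measured), B cell (3 of 4), endothelial (6 of 6), stellate (6 of 6), erythroid (2 of 4) and neutrophil markers (4 of 4) overlapped between the groups, and the T cell gene Cd5 (-0.37) and the endothelial gene Lyve1 (0.52) were the only ones of these at an unadjusted p below 0.05.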

How the data were processed

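Total RNA was extracted with Trizol from 6 liver tumours and biotin-labelled cRNA was made from 5 µg of it, per the labels' protocols. Per the submitters' processing notes the authors used RMA (background correction, quantile normalization and probe set summaries; no version is stated), so the deposited values are log2 levels. Genome build and probe definitions are not given in the sources used here.

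Of 22690 probe sets, 64 array controls were left out. Of the rest, 20380 had 1 gene symbol, 691 several and 1555 none, and 20351 gene IDs were found in the RefSeq gene table (GRCm38.p6). Groups came from the genotype labels and replicates were numbered in accession order. Each array has its own animal number, and pairs of arrays correlated with r of 0.987 to 0.993 over probe sets. All probe sets were fitted together with limma 3.58.1 in R 4.3.3 (lmFit, eBayes, two-sided, Benjamini-Hochberg over all, threshold 0.05), and the fit was tested on simulated data. For lists, 1 probe set per gene was used, that with the highest mean. The members and lists were chosen with earlier results of these data known. Named were all member probe sets, every measured gene of the Afp regulator and Zhx2 lists, the 4 genes of smallest p in the other lists (marker lists as counts), and the 8 and 5 genes nearest to Afp and Gpc3. Npffr2, Slc4a4, Cox18, Ankrd17, Top2a, Cd44, Cd24a, Krt19, Igf2, Dlk1, Mest, Cdkn1c, Fcgrt and Golm1 were picked after their values were seen. Planned results for Gc could not be made, so 3 members and not 4 were set against Afp. Figures used Python 3.11.15 and matplotlib 3.10.9.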

Additional observations from a re-analysis of the deposited data

How the results depend on the processing

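The difference of Afp on its probe set with the highest mean kept its direction under all 15 alternatives, from 2.32 to 3.38 log2, and did not pass under any (limma, adjusted p from 0.0707 to 0.869). Those of Alb and Afm did not pass either and kept direction, except that Alb came to 0 after repeated quantile normalization. With each array left out in turn, the Gpc3 difference ran from -0.03 to 1.10, the lowest without Alb/AEG-1 replicate 2. The probe set Afp 1436880_at ran from -0.21 to 0.04, turning positive without wild-type replicate 3. Afp minus Alb ran from 2.34 to 3.41, Afp minus Afm from 2.21 to 3.23 and Afp minus Gpc3 from 1.74 to 2.44 over 11 alternatives each.

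The number of probe sets called was 1, with 2 under trend moderation, 0 with a term for lower or higher animal number, and 0 to 1 with single arrays left out (0 without wild-type replicate 1, wild-type replicate 2 or Alb/AEG-1 replicate 3). The number at an unadjusted p below 0.05 and 1.5-fold was 183 and ran from 150 to 361 with single arrays left out (361 without wild-type replicate 1, 318 without Alb/AEG-1 replicate 3). Of the listed genes other than markers, 22 were at an unadjusted p below 0.05, 14 with dim probe sets left out (fewer genes tested) and 14 to 21 with single arrays left out, 14 without wild-type replicate 2. The cause of the other shifts was not tested. Medians of lists moved by more than the spread between arrays in 23 of 255 cases. No paired analysis was possible because the labels give no replicate numbers shared between the groups. Dim probe sets lie near the floor of the scale, and the table gives no detection calls for them.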
